A study of Mus musculus with 6 samples.

Results

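MHC class I antigen presentation was examined through 10 genes in 393P_ZEB1 and 393P_vector cells. The genes were taken by name from the 24214 features counted in each sample, and each of the 10 was found once. They were H2-K1 and H2-D1 (heavy chains), B2m (light chain), Tap1 and Tap2 (peptide transporter), Tapbp (loading), Psmb8 and Psmb9 (proteasome subunits), Erap1 (peptide trimming) and Nlrc5 (transactivator). Both names begin with that of the parent line, an epithelial lung adenocarcinoma (LUAD) line labelled as KP mouse lung cancer cells of strain C57BL/6, and both groups were transfectants of it. The 393P_vector group held the empty vector (3 samples) and the 393P_ZEB1 group a vector for ZEB1, a transcription factor that drives epithelial-mesenchymal transition (3 samples). Total RNA was sequenced on the SOLiD platform, and no sample received interferon according to the labels. Both groups derive from 1 cell line, and nothing in the labels says whether replicates came from separate transfections or cultures, so the p-values measure only the spread between these samples.

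Class I molecules show peptides from inside the cell to cytotoxic T cells. Proteasomes cut proteins into peptides, the TAP transporter moves these into the endoplasmic reticulum, aminopeptidases such as ERAP1 (ERAAP in mouse) trim them, and tapasin, encoded by Tapbp, holds the heavy chain with its light chain B2m at the transporter while a peptide is fitted. Interferon induces most of these genes through IRF and other factors, and NLRC5 acts on class I promoters through a complex that includes the RFX proteins. Tumor cells often carry low levels of these genes, which limits their recognition by T cells.

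The promoters of the heavy and light chain genes are shown first, since these genes encode the parts of the surface complex. Each is the 250 bases before the transcription start in RefSeq (GRCm38.p6), read along the strand of the gene. Capitals mark matches to AANNGAAA (the core of sites for IRF factors), GGGNNTTNC (a kappaB-like site) and CCAAT, searched on both strands.
H2-K1, chr17:34000334-34000583, minus strand: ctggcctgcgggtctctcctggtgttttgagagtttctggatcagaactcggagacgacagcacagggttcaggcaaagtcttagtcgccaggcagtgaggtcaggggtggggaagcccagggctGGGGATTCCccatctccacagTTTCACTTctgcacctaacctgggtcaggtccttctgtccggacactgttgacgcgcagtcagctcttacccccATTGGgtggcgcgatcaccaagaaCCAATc
H2-D1, chr17:35262844-35263093, plus strand: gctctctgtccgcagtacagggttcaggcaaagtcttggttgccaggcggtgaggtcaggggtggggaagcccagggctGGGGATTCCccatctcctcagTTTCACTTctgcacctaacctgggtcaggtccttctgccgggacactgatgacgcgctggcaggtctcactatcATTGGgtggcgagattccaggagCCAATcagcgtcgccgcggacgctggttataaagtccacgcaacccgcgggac
B2m, chr2:122147437-122147686, plus strand: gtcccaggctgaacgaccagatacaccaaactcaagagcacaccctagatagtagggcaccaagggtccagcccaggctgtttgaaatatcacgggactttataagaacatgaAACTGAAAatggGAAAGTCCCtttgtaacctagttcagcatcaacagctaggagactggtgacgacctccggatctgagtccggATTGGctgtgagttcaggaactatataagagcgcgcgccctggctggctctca
In these upstream stretches, the H2-K1 and H2-D1 sequences were identical at 180 of 203 aligned bases (88.7%). H2-K1 and B2m matched at 49.4% of 239 aligned bases, and H2-D1 and B2m at 60.8% of 222. All 3 held the IRF core, the kappaB-like site and CCAAT. Within windows of 300 bases (250 before and 50 after the start), the IRF core was found in 23.9% of 32851 mouse promoters, the kappaB-like letters in 15.2% and CCAAT in 37.4%. A match is only a run of letters, and binding was not measured.

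Of the 10 genes, Erap1 rose and H2-K1, Tapbp and Nlrc5 fell in 393P_ZEB1. H2-D1, B2m, Tap1, Tap2 and Psmb8 did not pass the test, and Psmb9 had too few counts to be tested. Levels are given as CPM, counts scaled to library size after TMM normalization of the library sizes, and the fold change is the log2 difference of 393P_ZEB1 less 393P_vector in edgeR's quasi-likelihood fit over 13892 genes. An adjusted p under 0.05 was required. Over all tested genes, 18.3% were called higher and 19.3% lower, so 1 higher and 3 lower among 9 tested is to be read against a background that is itself high. The median log2 fold change was -0.49 over the 9 genes and -0.02 over all tested genes. The groups did not overlap for 5 of the 9, with Erap1 and Tap2 higher and H2-K1, Tapbp and Nlrc5 lower. Among all tested genes, 26.3% were without overlap and higher and 26.5% without overlap and lower. With 3 samples against 3, an exact permutation test of a single gene cannot give a p below 0.1. In bulk RNA, fewer cells that express a gene and less RNA per cell cannot be told apart.

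The libraries held between 54442450 and 79158012 counts, and 3 counts, the smallest number taken as detected, were worth between 0.0379 and 0.0551 CPM. Zeb1 was at 21.2, 22 and 21.4 CPM in 393P_vector and 54.9, 48.9 and 51.3 CPM in 393P_ZEB1. Of 6 epithelial markers, 4 were lower, against 19.3% of all tested genes. Nkx2-1, a lung lineage factor, was at or below 0.0561 CPM in every sample. The 4 mesenchymal markers (Vim, Cdh2, Fn1 and Zeb1) were higher, against 18.3% of all tested genes. ZEB1 is what the vector carries, so the rise of Zeb1 is no separate example. 393P_vector replicate 3 stood apart. It differed 2-fold or more from the other 393P_vector samples in 6.89% and 7.75% of tested genes, against 0.9% between these other 2 and at most 1.29% between 393P_ZEB1 samples. Without it, edgeR called 26.2% of tested genes higher and 26.8% lower, and among the class I genes 2 higher (Erap1, Tap2) and 4 lower (H2-K1, H2-D1, Tapbp, Nlrc5). It is therefore followed for each gene below.

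**Figure D1:**
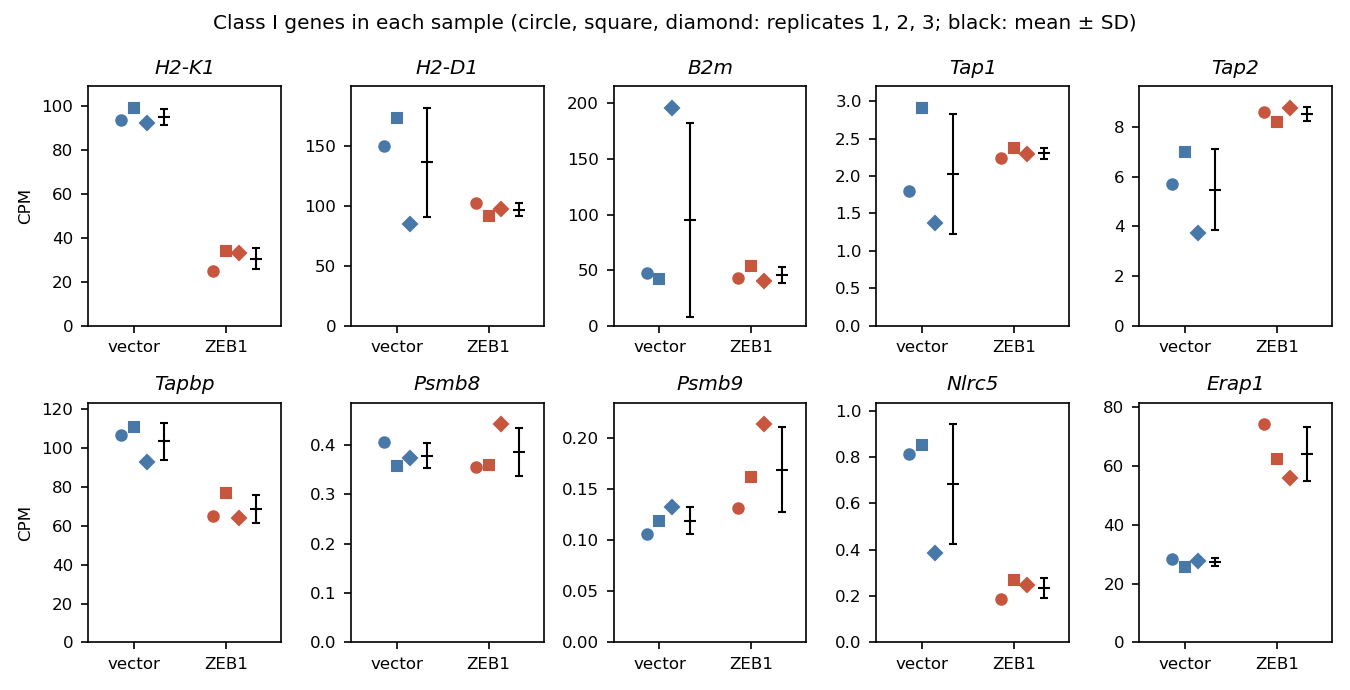
Level of each of the 10 genes in each sample, in CPM on a linear axis from 0 (blue, 393P_vector; red, 393P_ZEB1; the marker shape gives the replicate; black, mean ± SD of 3 samples). H2-K1, Tapbp and Nlrc5 lie lower and Erap1 and Tap2 higher in all 3 393P_ZEB1 samples, and B2m stands out at 196 CPM in 393P_vector replicate 3 alone.

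H2-K1 encodes a classical heavy chain, and with H2-D1 it presents peptides to CD8+ T cells. H2-K1 (chr17:33996012-34000333, minus strand) was at 93.7, 99.3 and 92.3 CPM in 393P_vector and at 25.0, 33.9 and 33.1 CPM in 393P_ZEB1. The groups lay far apart, and 393P_vector replicate 3 was level with its group. The log2 fold change was -1.63 (SE 0.14, 3.10-fold lower, edgeR adjusted p = 8.01e-05). Leaving out any 1 sample gave between -1.7 and -1.5.

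H2-D1 (chr17:35263094-35267497, plus strand) gave a less uniform picture. It was at 150, 173 and 85.2 CPM in 393P_vector and at 102, 91.5 and 97.1 CPM in 393P_ZEB1. The 393P_ZEB1 samples were close together, while 393P_vector replicate 3 lay below all of them and the other 2 vector samples above. The log2 fold change was -0.49 (SE 0.24, edgeR adjusted p = 0.144) and did not pass the test. Without 393P_vector replicate 3 it was -0.74 (edgeR adjusted p = 4.91e-05), so the call depended on that sample. The feature H2-L lies within H2-D1 on the same strand, so its reads cannot be separated from those of H2-D1. H2-L went from 65.3, 80.3 and 45.8 CPM to 38.5, 39.5 and 45.3 CPM, a log2 fold change of -0.63 (SE 0.20, edgeR adjusted p = 0.0406). Class I heavy chains also share sequence. Of all 50-base windows in the annotated transcript, 8.79% of those of H2-K1 and 14.3% of those of H2-D1 occur in other class I genes, so part of their counts may be exchanged, depending on how multiply mapping reads were counted.

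B2m (chr2:122147687-122153082, plus strand) encodes the light chain that all class I heavy chains of the classical type need to reach the surface. It was at 47.5, 42.1 and 196 CPM in 393P_vector and at 42.9, 54.0 and 40.5 CPM in 393P_ZEB1. All samples but 393P_vector replicate 3 lay within 40.5 to 54.0 CPM. With all samples, the log2 fold change was -1.06 (SE 0.56, edgeR adjusted p = 0.176), and without 393P_vector replicate 3 it was 0.03 (SE 0.13, edgeR adjusted p = 0.853). In that sample B2m was 4.37-fold above the mean of the other vector samples, rank 63 from the top of 13892 tested genes. The exon length of B2m is 854 bases. Of the 1204 tested genes shorter than 1000 bases, 25.3% were more than 2-fold above the other vector samples in 393P_vector replicate 3, against 2.66% of the 12688 longer genes. In the other direction, 4.32% of the shorter and 2.55% of the longer genes were more than 2-fold below. The part of gene length in the B2m value was not tested.

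The genes whose pattern over the 6 samples lay nearest that of B2m were Rps27, Gm9846 and Snora52, by the root mean square difference of centred log2 CPM. Rps27, a ribosomal protein gene, was at 6.55, 6.71 and 30.8 CPM in 393P_vector and at 5.40, 7.67 and 6.91 CPM in 393P_ZEB1. Snora52, a small nucleolar RNA, had 397 CPM in 393P_vector replicate 3 and between 68.7 and 102 CPM in the other samples. Gm9846 covers the same locus as Rps27, so it is no separate example. Patl2, which overlaps B2m on the other strand, had at most 8 counts in any sample. No other tested gene of the class I set was high in 393P_vector replicate 3. There, Nlrc5, H2-D1, Tap2 and Tap1 were 2.02-fold, 1.89-fold, 1.68-fold and 1.65-fold below the mean of the other vector samples.

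Because each heavy chain pairs with a light chain, their ratio was taken within each sample from RPKM (CPM per kilobase of exon). The ratio of H2-K1 to B2m was 1.03, 1.23 and 0.246 in 393P_vector and 0.304, 0.327 and 0.426 in 393P_ZEB1. Only 393P_vector replicate 3, where B2m was high, fell below the ZEB1 samples. The log2 difference was -0.96 (exact permutation p = 0.4, adjusted over 2 ratios p = 0.8), and -1.69 without that replicate. The ratio of H2-D1 to B2m was 1.57, 2.03 and 0.215 in 393P_vector and 1.17, 0.838 and 1.18 in 393P_ZEB1, a log2 difference of 0.26 (exact permutation p = 1.0, adjusted p = 1.0) that turned to -0.76 without the replicate.

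Tap1 and Tap2 encode the subunits of the peptide transporter. Tap1 (chr17:34187556-34197225, plus strand) was at 1.80, 2.91 and 1.37 CPM in 393P_vector and at 2.24, 2.38 and 2.29 CPM in 393P_ZEB1. The ZEB1 values fell inside the vector range, and the log2 fold change was 0.19 (SE 0.28, edgeR adjusted p = 0.631), or -0.03 without 393P_vector replicate 3. Tap2 (chr17:34204479-34216321, plus strand) was at 5.72, 6.97 and 3.73 CPM in 393P_vector and at 8.60, 8.21 and 8.76 CPM in 393P_ZEB1. Every ZEB1 sample lay above every vector sample. The log2 fold change of 0.64 (SE 0.23, edgeR adjusted p = 0.0601) missed the threshold. It passed without 393P_vector replicate 3 (0.42, edgeR adjusted p = 0.0227) and without 393P_vector replicate 2 (0.86, edgeR adjusted p = 0.0243). Both transporter genes were far below the heavy chains per length of transcript, with a mean of 0.690 ± 0.269 RPKM for Tap1 and 2.21 ± 0.659 RPKM for Tap2 against 58.1 ± 2.28 RPKM for H2-K1 in 393P_vector (SD, n = 3).

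Tapbp (chr17:33919478-33929290, plus strand), the gene of tapasin, was at 107, 111 and 92.9 CPM in 393P_vector and at 65.2, 77.0 and 64.2 CPM in 393P_ZEB1. The groups did not overlap. The log2 fold change was -0.59 (SE 0.12, 1.5-fold lower, edgeR adjusted p = 0.00697) and stayed between -0.67 and -0.53 when any 1 sample was left out. Tapbp was called lower, while Tap1 and Tap2, to which tapasin binds, were not called in either direction.

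Tap1 and Psmb9 start 226 bases apart and point away from each other, so they share the stretch between them. It is shown because it holds CAGGTG, a form of the E-box that ZEB1 is known to bind, here in capitals with CCAAT.
Tap1, chr17:34187306-34187555, plus strand: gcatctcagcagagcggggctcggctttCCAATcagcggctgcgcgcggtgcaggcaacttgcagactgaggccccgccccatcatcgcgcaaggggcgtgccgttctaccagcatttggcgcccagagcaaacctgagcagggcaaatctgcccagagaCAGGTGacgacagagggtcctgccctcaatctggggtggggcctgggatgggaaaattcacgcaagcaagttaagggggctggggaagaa
Counted from the first base of the transcript, CAGGTG lay at -90 to -85 in Tap1 and, read from the other strand, at -141 to -136 in Psmb9. It was found in 20.2% of all promoters (windows of 300 bases, both strands) and in no other of the 8 class I genes with a promoter in the RefSeq table. Tap2 and Nlrc5 had no promoter there. Tapbp held CCAAT at 2 places, Psmb8 held none of the 4 motifs, and Erap1 held an IRF core across its RefSeq start, from -4 to 4.

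Psmb8 and Psmb9 encode subunits that replace Psmb5 and Psmb6 when the immunoproteasome is built. Both had few counts. Psmb8 (chr17:34198195-34201454, plus strand) had 23, 21 and 31 counts in 393P_vector and 19, 20 and 27 in 393P_ZEB1, a log2 fold change of 0.03 (95% interval -0.55 to 0.61, edgeR adjusted p = 0.938). Psmb9 (chr17:34182099-34187330, minus strand) had 6, 7 and 11 counts in 393P_vector and 7, 9 and 13 in 393P_ZEB1, and its groups overlapped in CPM. The third induced subunit, Psmb10, was expressed at 18.0, 21.2 and 20.5 CPM in 393P_vector and rose to 27.1, 27.0 and 29.5 CPM in 393P_ZEB1 (log2 fold change 0.49, SE 0.12, edgeR adjusted p = 0.0141).

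The induced subunits were next set against the constitutive ones within each sample, in RPKM. Psmb8 was at 1.34% to 1.99% of Psmb5 in 393P_vector and 1.36% to 1.73% in 393P_ZEB1. Psmb9 was at 0.137% to 0.173% of Psmb6 in 393P_vector and 0.145% to 0.227% in 393P_ZEB1. The constitutive subunits dominated in both groups, and the log2 ratios differed by -0.06 and 0.21 (exact permutation p = 0.9 and p = 0.4). Psmb10 was at 9.19% to 13.2% of Psmb7 in 393P_vector and 16.0% to 17.7% in 393P_ZEB1. This was the only one of the 3 ratios whose groups did not overlap, with a log2 difference of 0.59 (exact permutation p = 0.1, the smallest possible, adjusted over 3 ratios p = 0.3).

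Erap1 (chr13:74639872-74691875, plus strand), the aminopeptidase that trims peptides to the length class I molecules hold, was the 1 gene of the set that rose. It was at 28.5, 25.8 and 27.6 CPM in 393P_vector and at 74.2, 62.4 and 56.0 CPM in 393P_ZEB1. The replicates of each group were close together, 393P_vector replicate 3 included. The log2 fold change was 1.23 (SE 0.13, 2.35-fold higher, edgeR adjusted p = 0.000271), between 1.12 and 1.33 when any 1 sample was left out. The median log2 fold change of tested genes on chromosome 13 was 0.13.

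Nlrc5 (chr8:94472763-94527272, plus strand), the transactivator of class I genes, was low in all samples. It had 46, 50 and 32 counts in 393P_vector and 10, 15 and 15 in 393P_ZEB1, or 0.813, 0.850 and 0.385 CPM against 0.187, 0.270 and 0.246 CPM. The groups did not overlap, and the log2 fold change was -1.51 (SE 0.38, 2.86-fold lower, edgeR adjusted p = 0.0175). With so few counts the call was not firm. It was lost without 393P_vector replicate 1 (-1.36, edgeR adjusted p = 0.0521), without 393P_vector replicate 2 (-1.31, 0.0501), without 393P_ZEB1 replicate 1 (-1.38, 0.0743) and without 393P_ZEB1 replicate 3 (-1.54, 0.0592). Without 393P_vector replicate 3 it was -1.81 (edgeR adjusted p = 0.000782). Without 393P_ZEB1 replicate 2 it was -1.62 (edgeR adjusted p = 0.0489), and the direction was the same each time.

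Leukocytes carry high levels of class I genes and of Nlrc5, so their markers were examined. Of 12 leukocyte markers, 9 had a mean below 0.5 CPM, and Ptprc, the pan-leukocyte marker CD45, was between 0.119 and 0.373 CPM in 393P_vector and between 0.126 and 0.262 CPM in 393P_ZEB1. Only 6 could be tested, with 1 called higher and 2 lower, against 18.3% and 19.3% of all tested genes. The summed level of all 12 was 21.3, 21.1 and 22.3 CPM in 393P_vector and 58.6, 60.0 and 61.7 CPM in 393P_ZEB1. Most of it was Cd14, which rose (log2 fold change 1.77, edgeR adjusted p = 9.24e-06). Without Cd14 the sum was 4.58, 3.40 and 5.53 CPM in 393P_vector and 2.06, 1.93 and 2.39 CPM in 393P_ZEB1. Cd68, the highest of the other 11, was not called (edgeR adjusted p = 0.0639). The 2 called lower were Csf1r and Itgax (log2 fold changes -1.82 and -1.81, edgeR adjusted p = 0.00149 and adjusted p = 0.0117). The part of such cells in the Nlrc5 and H2-K1 values was not tested. Class II genes, which present peptides in specialised cells, were near 0 throughout, with a summed level of 1.94 to 2.35 CPM over 10 genes. Only 3 could be tested, and they differed. Cd74, the invariant chain, fell from 0.406, 0.544 and 0.614 CPM to 0.131, 0.198 and 0.115 CPM (log2 fold change -1.82, edgeR adjusted p = 0.00407). H2-DMb1 (0.64, edgeR adjusted p = 0.104) and H2-DMa (0.07, edgeR adjusted p = 0.897) were not called. Without 393P_vector replicate 3, H2-DMb1 was called higher (0.93, edgeR adjusted p = 0.0136) and Cd74 stayed lower (-1.68, edgeR adjusted p = 0.0053).

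**Figure D2:**
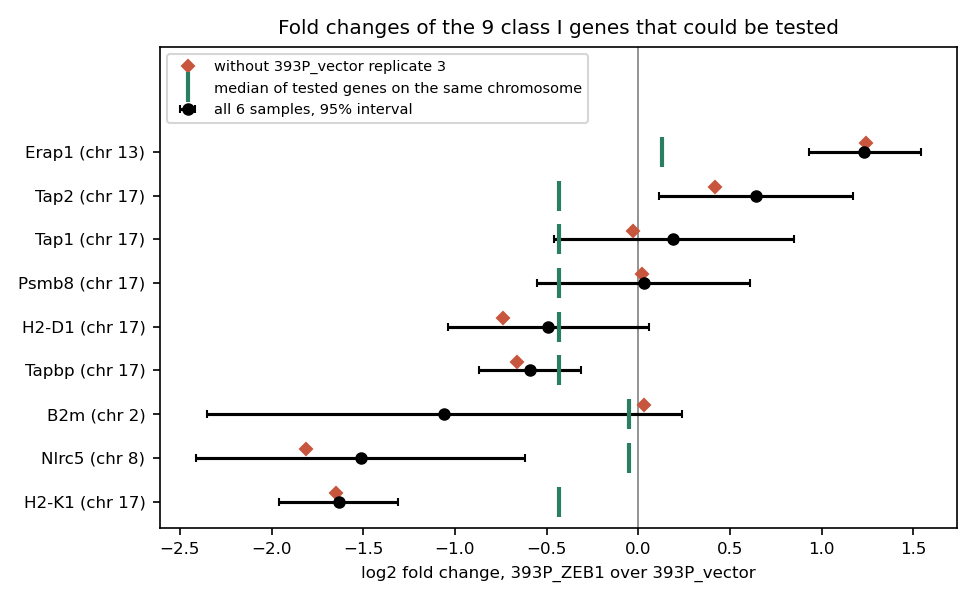
Log2 fold change of 393P_ZEB1 over 393P_vector for the 9 tested genes, with the 95% interval over all 6 samples (black), the value without 393P_vector replicate 3 (red diamond) and the median of all tested genes on the same chromosome (green bar). B2m moves from -1.06 to 0.03 without the replicate, H2-K1 lies below the chromosome 17 median of -0.43, and Tap2 lies above it.

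Because 7 of the 10 genes lie in the MHC on chromosome 17, these were set against the rest. The 6 that could be tested had a median log2 fold change of -0.23, with Tapbp and H2-K1 called lower and none higher. Of all 675 tested genes on chromosome 17, 249 were called lower and 32 higher, so these calls are near the share of the chromosome. Over all tested genes, 19.3% were lower and 18.3% higher. The 3 on other chromosomes (B2m, Nlrc5 and Erap1) had a median of -1.06, which became 0.03 without 393P_vector replicate 3. These are medians of few and unlike values, from -1.51 to 1.23 among the 3, and they carry no test.

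Chromosome 17 as a whole was lower in 393P_ZEB1. Its 675 tested genes had a median log2 fold change of -0.43, the lowest of all autosomes, with 249 called lower and 32 higher. Tested genes elsewhere, pooled, had a median of -0.01, but single chromosomes were shifted in both directions. Chromosomes 6, 15, 10 and 14 had medians of -0.36, -0.33, -0.3 and -0.26. Chromosomes 18, 11 and 16 had medians of 0.64, 0.27 and 0.25. The median of chromosome Y was -6.89 over 6 tested genes. The shift of chromosome 17 was present before the MHC stretch (-0.45 over 307 genes) and after it (-0.40 over 303). It was also present among the 55 tested genes of other function inside that stretch (-0.51, 45 below 0, 20 called lower and 2 higher). Against this background, the 95% interval of H2-K1 (-1.96 to -1.31) lay below the chromosome median and that of Tap2 (0.11 to 1.17) above it. The intervals of Tapbp (-0.87 to -0.31), H2-D1 (-1.04 to 0.06), Tap1 (-0.46 to 0.85) and Psmb8 (-0.55 to 0.61) included it. These intervals are not adjusted for the number of genes, and Tap2 did not pass the adjusted test against 0 (edgeR adjusted p = 0.0601). How many chromosome 17 genes have an interval that leaves out the median was not counted. The log2 fold change of Tapbp thus differed from the chromosome median by -0.16, and that of H2-K1 by -1.20. What set the level of chromosome 17 was not tested.

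**Figure D3:**
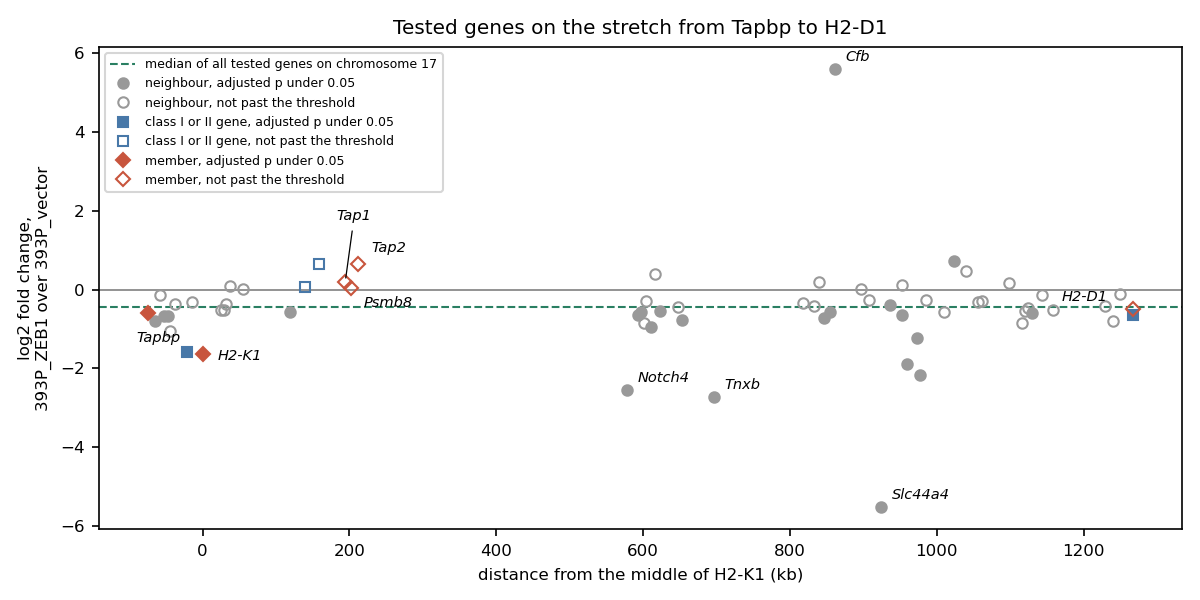
Log2 fold change of each tested gene on the stretch from Tapbp to H2-D1, by its distance from the middle of H2-K1 in kb (red diamonds, the class I genes described here; blue squares, other class I and class II genes; grey, neighbours; filled, adjusted p under 0.05; dashed, chromosome 17 median of -0.43). Most neighbours lie below 0, H2-K1 lies at -1.63 close to Tapbp at -0.59, and Tap2, Tap1 and Psmb8 lie above 0.

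Of the neighbours called higher, Cfb, complement factor B, rose from 0.323 to 15.7 mean CPM (log2 fold change 5.61). The other was Vwa7 (0.72, edgeR adjusted p = 0.0357), whose call was lost without 393P_vector replicate 3 (0.58, edgeR adjusted p = 0.0587). Among those called lower, Slc44a4, a choline transporter family gene of epithelia, fell from 4.96 to 0.105 mean CPM (-5.53), and Tnxb (-2.73) and Notch4 (-2.55) fell as well. These are the extremes among neighbours of which 45 of 55 lay below 0.

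Other heavy chains of the class I family were examined as a list of 30, of which 14 passed the filter on low counts, 3 were called higher and 3 lower (median log2 fold change -0.42), close to the 18.3% higher and 19.3% lower of all tested genes. Without 393P_vector replicate 3, 3 were higher and 6 lower, against 26.2% and 26.8% of all tested genes. The 3 that rose are MHC class I-like proteins with other ligands, all encoded outside the MHC stretch described above. Cd1d1, which presents lipids to NKT cells, went from 0.777, 0.663 and 0.782 CPM to 6.77, 6.30 and 5.90 CPM (log2 fold change 3.09, SE 0.17, edgeR adjusted p = 8.28e-06). Hfe, a regulator of iron uptake, went from 1.64, 2.46 and 1.76 CPM to 7.48, 6.79 and 7.29 CPM (1.88, SE 0.20, edgeR adjusted p = 0.000237). Mr1, which presents vitamin B metabolites, went from 5.81, 6.29 and 6.52 CPM to 12.1, 10.7 and 9.94 CPM (0.81, SE 0.14, edgeR adjusted p = 0.00304). All 3 were without overlap between groups and held without 393P_vector replicate 3. They are proteins that pair with B2m.

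The features called lower were Fcgrt, the neonatal Fc receptor (log2 fold change -2.75, edgeR adjusted p = 0.00158), H2-K2 (-1.58, edgeR adjusted p = 0.0107) and H2-L. The list counts H2-L as 1 of its genes, but its reads cannot be separated from those of H2-D1. H2-D1 did not pass the test with all samples, so H2-L is no separate example of a fall. Fcgrt and H2-K2 were at or below 0.459 CPM in every sample. H2-K2 lies beside H2-K1. Among the nonclassical genes, H2-T22, H2-T9, H2-M3 and H2-T23 did not pass the test, with log2 fold changes of -0.26, -0.25, -0.02 and 0.10. H2-T22 and H2-T9 cover the same locus with nearly the same counts, so they are 1 measurement that the list of 14 counts as 2. Without 393P_vector replicate 3 it was called lower, at -0.41 for H2-T22 (edgeR adjusted p = 0.0264) and -0.40 for H2-T9 (edgeR adjusted p = 0.0267).

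Of 17 further genes of peptide supply and loading, all were tested, 3 were called higher (Psmb10, Blmh, Psmb6), 1 lower (Calr) and the median was 0.08. The share called higher was near the 18.3% of all tested genes and the share called lower under the 19.3%. Calr, the chaperone calreticulin of the loading complex, went from 1540, 1570 and 999 CPM to 908, 779 and 852 CPM (log2 fold change -0.69, SE 0.18, edgeR adjusted p = 0.0206). Its partners Pdia3 (-0.05), Canx (0.23) and Tapbpl (-0.02), the last a relative of tapasin, did not pass the test. Calr was called lower, as were Tapbp and H2-K1, and whether these falls are linked was not tested. For Calr, too, 393P_vector replicate 3 was the lowest vector sample. Blmh, a cytosolic peptidase, had a log2 fold change of 0.43 (edgeR adjusted p = 0.0213) and Psmb6 of 0.27 (edgeR adjusted p = 0.0462). Psmb5 (0.08) and Psmb7 (-0.12) did not pass. The proteasome activators Psme1 (0.27, edgeR adjusted p = 0.116) and Psme2 (0.59, edgeR adjusted p = 0.256) did not either. Psme2 was at 28.8, 29.5 and 9.49 CPM in 393P_vector and at 34.7, 34.4 and 32.6 CPM in 393P_ZEB1. Its exon length is 965 bases, and 393P_vector replicate 3 was 3.06-fold below the mean of the other vector samples. Without that replicate the log2 fold change of Psme2 was 0.22.

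**Figure D4:**
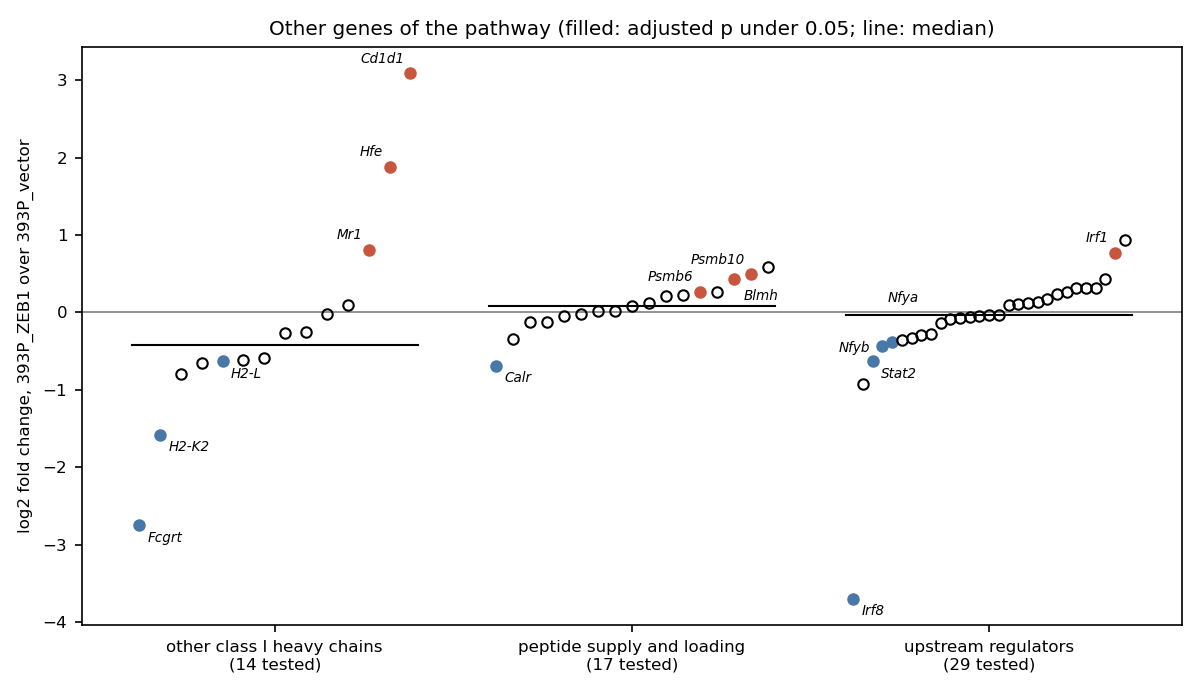
Log2 fold change of 393P_ZEB1 over 393P_vector for the tested genes of 3 further lists, in rank order within each list (red, called higher; blue, called lower; open, not called; line, median of the list). Cd1d1 (3.09) and Irf8 (-3.70) are the extremes, and most genes of peptide supply and of the regulators lie near 0.

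Of 30 upstream regulators, 29 were tested, 1 was called higher and 4 lower (median -0.03), below the 18.3% and 19.3% of all tested genes. Without 393P_vector replicate 3, 6 were called higher and 6 lower, against 26.2% and 26.8% of all tested genes. Irf1, an interferon-induced activator of class I genes, went from 30.3, 32.2 and 28.0 CPM to 44.5, 57.3 and 52.4 CPM (log2 fold change 0.77, SE 0.13, edgeR adjusted p = 0.00273). It rose while H2-K1 fell. Irf8, a factor of myeloid and lymphoid cells, went from 1.82, 2.46 and 2.00 CPM to 0.243, 0.126 and 0.115 CPM (-3.70, SE 0.32, edgeR adjusted p = 9.19e-05). Stat2 of the type I interferon pathway (-0.63, edgeR adjusted p = 0.0166) and the CCAAT-binding subunits Nfyb (-0.43, edgeR adjusted p = 0.0282) and Nfya (-0.38, edgeR adjusted p = 0.0300) fell to a lesser extent. Rfx5 (-0.03) and Ifngr1 (-0.36), which encode a partner of NLRC5 and a chain of the interferon-gamma receptor, did not pass the test. The other 24 tested regulators were not called. Which regulators bear on H2-K1 or Erap1 was not tested.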

How the data were processed

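RNA sequencing data of 6 samples were used, 3 of 393P_vector and 3 of 393P_ZEB1, grouped by the condition in their labels. For each of 24214 RefSeq features the authors deposited the unnormalized read count, the exon length and the RPKM (count scaled by exon length and by reads of the sample). The deposited RPKM values were not used in tests, and RPKM in the text was computed from TMM-normalized counts. The aligner, the counting program, the read length and the use of strand are not given in the sources used here. Of 20808 symbols matched to RefSeq, 99.4% overlapped their GRCm38 position. No column belonged to an unknown sample.

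Genes were kept by filterByExpr (minimum count 10), normalized by TMM and tested with edgeR 4.0.16 in R 4.3.3 (robust quasi-likelihood fit, Benjamini-Hochberg adjustment over 13892 genes, threshold 0.05). The procedure was tested in 3 simulations with 200 changed genes, where edgeR recovered 91% of these and 3.69% of its calls were false. The simulated samples all had the same spread, so this does not cover an outlying sample such as 393P_vector replicate 3. That spread was also set below the one fitted to the data. Far fewer genes were changed than were called here, each by 2-fold, so these rates may not hold for the data. Ratios were compared by exact two-sided permutation tests. The genes and lists were chosen with earlier results of these data known. Named were all 10 class I genes, up to 5 called genes of each other list by size of change, partners of class I genes, 4 regulators (1 is not reported here), up to 3 neighbours in each direction, and the 3 genes outside the lists with a mean of at least 5 CPM nearest B2m. H2-T22, H2-T9, H2-M3 and H2-T23 were named after their values were seen. Alternatives were DESeq2 1.42.0, limma 3.58.1 with voom and sample weights, other size factors and filters, a replicate block, leaving out each sample, and a threshold of 0.01. RefSeq promoters (GRCm38.p6) were found for 8 of the 10 genes.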

Additional observations from a re-analysis of the deposited data

How the results depend on the processing

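The fall of H2-K1 and Tapbp and the rise of Erap1 passed an adjusted p of 0.05 under every alternative fitted. Leaving out each sample in turn gave between 1861 and 3700 genes higher and between 1784 and 3776 lower, with 1 to 2 class I genes higher and 2 to 4 lower. The median log2 fold change ranged from -0.35 to -0.14 for the class I genes on chromosome 17, from -1.36 to 0.03 for those elsewhere, and from -0.56 to -0.40 for the MHC neighbours. The lowest and highest values were -1.41 and 0.03 for B2m, -0.03 and 0.55 for Tap1, and -0.07 and 0.09 for Psmb8, which changed sign. DESeq2 called 2 class I genes higher (Tap2 at an adjusted p of 0.0233), as did limma voom with sample weights (Tap2 at 0.00536, and H2-D1 lower at 7.54e-05). Voom gave 393P_vector replicate 3 a weight of 0.111, called 3977 genes higher and 4094 lower, and moved the medians of the class I genes to -0.31 on chromosome 17 and -0.02 elsewhere. Without a filter, Psmb9 was included and the median of the class I genes on chromosome 17 was 0.03. An adjusted p under 0.01 left 1584 genes higher and 1545 lower. The main fit used no pairing by replicate number. Deviations of equal numbers correlated at 0.195, -0.126 and -0.028, and those of unequal numbers between -0.12 and 0.157. With 3 samples in each group, these values cannot settle whether equal numbers belong together. With a replicate block, the median of the class I genes elsewhere was -0.65, 2180 genes were higher and 2256 lower, and no call of a class I gene changed. Among the ratios, the log2 difference for Psmb10 to Psmb7 stayed between 0.45 and 0.72 when any 1 sample was left out. That for H2-D1 to B2m went from 0.26 with all samples to -0.76 without 393P_vector replicate 3. That for H2-K1 to B2m went from -0.96 to -1.69. The cause of these changes was not tested. Psmb8, Psmb9 and Nlrc5 are limited by their low counts.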
